A study of Mus musculus with 18 samples.

Results

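Regulators of G protein signalling (RGS proteins) were followed in mouse CD8 T cells through 7 genes, Rgs1, Rgs2, Rgs3, Rgs10, Rgs14, Rgs16 and Rgs19. They were chosen by name, and all probe sets annotated to these symbols alone were read, 16 in all. The 7 genes stand among 18193 genes with a probe set of their own and among 13769 genes that passed a filter on low values. All 7 passed that filter.

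The RNA came from C57Bl/6 mice carrying the F5 T cell receptor transgene, so naive and memory cells bear the same receptor, and both were sorted from the spleen by flow cytometry. Memory cells (the labels' TIM cells) arose in F5 mice given the NP68 peptide in a pair of immunisations and were taken on day 45. The naive groups were ex vivo cells, cells kept 20 hours in IL-7 at 10 ng/mL, and cells kept as long in IL-7 plus IL-4 at 20 ng/mL, on 2 arrays each. The memory groups were ex vivo cells on 4 arrays, and cultures of the same length without cytokine, in IL-7, in IL-4, or in the pair of them, on 2 arrays each. No naive cells in medium alone or with IL-4 alone are among these 18 arrays. The cell type field of the naive samples reads as both naive and memory; the titles, which say naive, were used. The ages and sexes of the mice and the number pooled are not given in the sources used here. The design text says that cultured samples came from sorted populations that were divided, and biological replicates are named as such in the titles for the ex vivo arrays alone. The p-values below therefore measure the spread between these arrays, which may in part be technical.

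Receptors for chemokines, lipids and nucleotides act through heterotrimeric G proteins, whose alpha subunit is active while it holds GTP. RGS proteins bind the active alpha subunit and speed its hydrolysis of GTP, which shortens the signal. In lymphocytes they are known for damping responses to chemokines and so for setting how cells move through lymphoid tissue. Rgs1, Rgs2, Rgs3 and Rgs16 belong to one subfamily, Rgs10 and Rgs14 to another, and Rgs19 to another again. IL-4 signals through STAT6 and IL-7 through STAT5, and both cytokines keep CD8 T cells alive in culture.

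Levels are given as log2 RMA values, where 1 unit is a doubling of signal, and a level is never set against that of another probe set. Where a gene has several probe sets, the one with the highest mean stands for it. Changes were tested with limma in 1 model over all 18 arrays, with Benjamini-Hochberg adjustment over the 13769 genes, and a gene was called at an adjusted p under 0.05.

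The array labelled memory in medium, replicate 2, stood apart from its partner. It correlated best with ex vivo memory array 2 (Pearson r 0.9954 over genes) and less with medium replicate 1 (0.9558), which in turn correlated best with memory IL-7 array 1 (0.9959). The immediate early list holds 19 genes, many but not all of which rise soon after stimulation. On medium replicate 2 it averaged 11.09 on the log2 scale. The list averaged 10.85 to 11.52 on the 6 ex vivo arrays and 8.09 to 9.79 on the 11 other cultured arrays. The array's Gapdh 3' minus 5' signal, a measure of RNA integrity and amplification, was 2.35. That signal was 2.07 to 2.69 ex vivo and 2.67 to 3.36 on the other cultured arrays. For Actb the array read 1.87, under the ex vivo range of 1.95 to 2.07. The other cultured arrays ranged from 1.63 to 2.25 in Actb, so the Actb control did not set it with the ex vivo arrays. This array enters the spread that all comparisons share. The medium group had an SD of 2.22 for Rgs1 and 2.55 for Rgs2. Medium replicate 2 was singled out from these same values, so a lower adjusted p without it follows a choice made after seeing them. For the 7 RGS genes, each by the probe set that stands for it, changes that passed with or without this array are given both ways below. Where 1 value is given for such a change, it is from all 18 arrays and the gene passed neither way. This rule does not cover further probe sets or other genes. The CD8 T cell list (Cd8a, Cd8b1, Cd3e and other genes) averaged 10.99 to 11.64 on all 18 arrays. The B cell list averaged 4.73 to 5.66, with group means of 7.31 to 8.64 for its member Cd79b, and the myeloid list 4.41 to 5.01. These lists rest on different probe sets, so their averages do not give the share of each cell type. In such bulk samples, fewer cells of a type and less RNA per cell cannot be told apart.

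Of the 7 RGS genes, 5 differed somewhere among the 8 groups by limma's moderated F test, beside 32.7% of all genes tested. They were Rgs2 (adjusted p = 4.61e-05), Rgs10 (0.00225), Rgs1 (0.00386), Rgs19 (0.0127) and Rgs3 (0.0314). Rgs14 and Rgs16 did not pass (adjusted p = 0.603 and 0.567). The same 5 genes were called without medium replicate 2, beside 40.8% of all genes. The group means of Rgs2 spanned 5.54 on the log2 scale and those of Rgs1 3.80. The others spanned between 0.54 (Rgs14) and 1.35 (Rgs19).

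**Figure D1:**
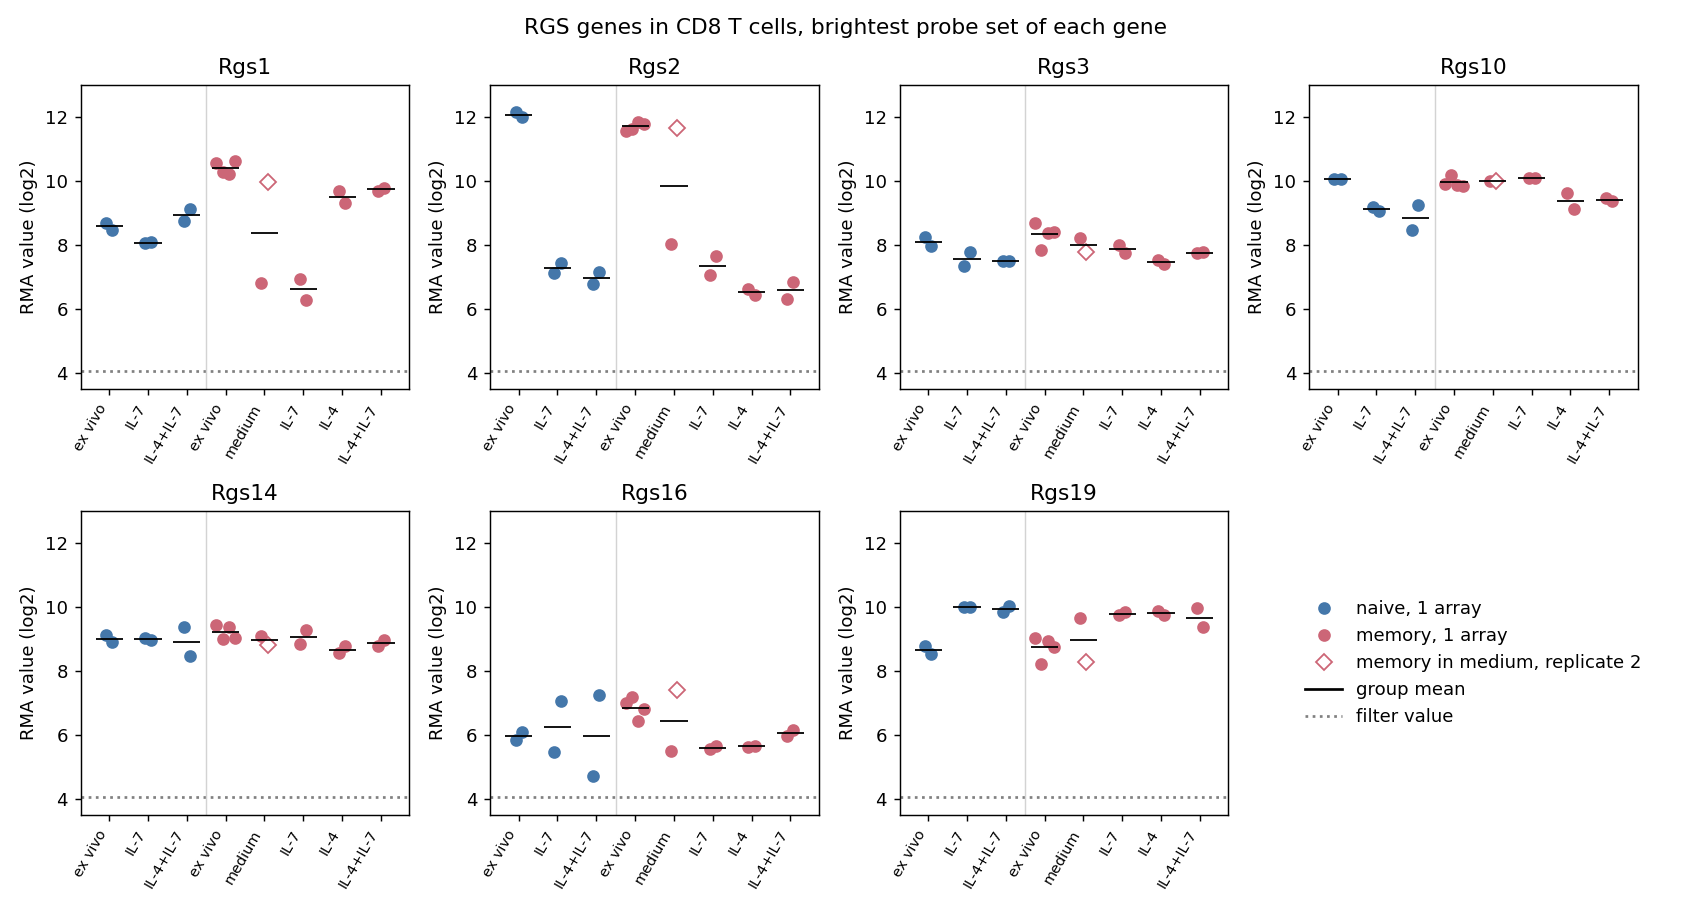
RMA values (log2) of the 7 RGS genes on each of the 18 arrays, by group, with the group mean as a bar, naive arrays in blue, memory arrays in red and the filter value of 4.06 as a dotted line. Rgs2 sits at 11.57 or above on all ex vivo arrays and on the open diamond, memory in medium replicate 2, and at 8.05 or below on the other cultured arrays.

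Rgs2, which acts mainly on Gq-class alpha subunits, had high values in cells straight from the spleen and low values after culture, in naive and memory cells alike. The ex vivo arrays read 12.15 and 11.99 in naive cells and 11.57, 11.62, 11.86 and 11.79 in memory cells. After 20 hours with IL-7 they read 7.13 and 7.45 in naive cells and 7.06 and 7.65 in memory cells. No cultured array with IL-7 came within 3 log2 units of an ex vivo array.

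Rgs2 fell by 4.78 in naive cells with IL-7 against ex vivo (27.4-fold, SE 0.71, adjusted p = 0.002) and by 4.35 in memory cells (20.4-fold, SE 0.62, adjusted p = 0.00392). The difference between those changes was 0.43 (95% interval -1.60 to 2.45, adjusted p = 0.893), so that a difference was not detected at this spread. In naive cells the call held in all 13 alternatives, and without medium replicate 2 its adjusted p was 6.31e-08. In memory cells it was lost without either of its IL-7 arrays (adjusted p up to 0.0615). When medium replicate 2 was left out, the memory change had an adjusted p of 9.29e-09 and passed with each of 6 further arrays left out.

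All 3 Rgs2 probe sets that passed the filter fell in culture. Against ex vivo, memory cells with IL-7 changed by -4.35, -4.11 and -5.33 and naive cells by -4.78, -4.62 and -5.83. The fourth, 1443250_at, lay above the filter value on 0 arrays. For this gene with the widest span, the window from 250 bases before to 50 bases after its RefSeq transcription start (GRCm38.p6, chr1:144004100-144004399, minus strand) is shown whole, as it holds the point from which the transcript begins.
Rgs2: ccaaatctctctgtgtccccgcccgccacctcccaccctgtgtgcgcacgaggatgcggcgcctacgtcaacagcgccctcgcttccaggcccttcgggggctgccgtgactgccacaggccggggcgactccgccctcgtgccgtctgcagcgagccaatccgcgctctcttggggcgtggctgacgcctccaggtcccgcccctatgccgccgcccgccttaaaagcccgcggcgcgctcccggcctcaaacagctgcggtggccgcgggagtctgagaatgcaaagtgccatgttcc
No match to the motifs searched is in these letters, hence no capitals. The motifs, on both strands, were a STAT site TTCNNNGAA (in 8.3% of 32851 such windows), the same with 1 more base in the spacer as STAT6 prefers (6.95%), the cAMP response element TGACGTCA (1.79%) and the AP-1 site TGANTCA (7.81%).

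IL-4 was followed by still lower Rgs2 values in memory cells, with a call only where no IL-7 was added. The memory arrays with IL-4 read 6.63 and 6.43, those with IL-4 and IL-7 6.33 and 6.86, and those in medium 8.05 and 11.65. Against medium, Rgs2 fell by 3.32 with IL-4 (SE 0.71, adjusted p = 0.0286), 1 of the 7 genes beside 1.94% of all genes. Fitted without medium replicate 2, it fell by 1.52 (adjusted p = 0.0118), and without medium replicate 1 by 5.12 (adjusted p = 1.45e-07). The call was lost when IL-4 array 1 or IL-4 array 2 was left out, with or without medium replicate 2, and when only the IL-4 and medium arrays were fitted (adjusted p up to 0.757). With IL-7 present, IL-4 changed Rgs2 by -0.76 in memory cells (adjusted p = 0.66) and by -0.32 in naive cells (adjusted p = 0.954). Each tested on its own by limma, probe sets 1419247_at and 1447830_s_at changed by -3.76 (adjusted p = 0.0382) and -4.23 (0.0648) against medium. In memory cells with IL-7 present, IL-4 changed them by -1.27 and -1.16 (adjusted p = 0.492 and 0.634).

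Rgs1, known in lymphocytes for restraining migration towards chemokines, was the gene that rose with IL-4 in memory cells. Memory cells with IL-7 alone read 6.96 and 6.28, and those with IL-4 and IL-7 read 9.68 and 9.80. With IL-4 alone they read 9.68 and 9.31, and ex vivo 10.56, 10.27, 10.21 and 10.63. Every IL-4 array thus lay above both IL-7 arrays and below every ex vivo memory array.

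In memory cells with IL-7, Rgs1 rose by 3.12 with IL-4 (8.69-fold, SE 0.63, 95% interval 1.76 to 4.48, adjusted p = 0.0206). It was 1 of the 7 RGS genes called there, beside 1.81% of all genes. The call was lost when any 1 of the 4 arrays compared was left out (adjusted p up to 0.197) and with the replicate number as a block (0.0501). Without medium replicate 2 the change was the same, since that array is in neither group, with an adjusted p of 1.99e-06 beside 3.91% of all genes called. It then passed with each of the 4 arrays left out in turn (adjusted p up to 0.000103).

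Against medium, the change of Rgs1 with IL-4 alone turned on which medium array was used. The medium arrays read 6.82 and 9.96. With both, the change was 1.10 (SE 0.63, adjusted p = 0.493). With medium replicate 2 left out, it was 2.68 (adjusted p = 0.000134), and Rgs1 and Rgs2 were the 2 genes called beside 1.54% of all genes. Without medium replicate 1 it was -0.47 (adjusted p = 0.317), and Rgs2 and Rgs19 were called beside 17.2% of all genes.

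In naive cells, Rgs1 values moved less. They read 8.70 and 8.48 ex vivo, 8.07 and 8.10 with IL-7, and 8.76 and 9.14 with IL-4 and IL-7. IL-4 changed Rgs1 by 0.86 (SE 0.63, 95% interval -0.50 to 2.22, adjusted p = 0.785; 0.0827 without medium replicate 2), and none of the 7 genes was called, beside 1.26% of all genes. The response to IL-4 with IL-7 present differed between memory and naive cells by 2.26 (SE 0.90, adjusted p = 0.457), with none of the 7 called beside 0.0726% of all genes. When medium replicate 2 was left out, this difference had an adjusted p of 0.00923 beside 0.145% of all genes, and it passed in 5 of 8 fits with a further array left out. It missed without naive IL-7 array 2 (0.0548), memory IL-4 and IL-7 array 2 (0.0541) or memory IL-7 array 2 (0.0649).

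Culture with IL-7 alone was followed by lower Rgs1 in memory cells, by 3.80 against ex vivo (13.9-fold, SE 0.55, adjusted p = 0.00392). The naive change was -0.51 (SE 0.63, adjusted p = 0.69; 0.152 without medium replicate 2). The difference between those changes was -3.30 (SE 0.84, adjusted p = 0.165), with none of the 7 genes called beside 0.0508% of all genes. Without medium replicate 2 it had an adjusted p of 0.000147 beside 0.922% of all genes, and passed with each of 10 further arrays left out (adjusted p up to 0.00234). The memory call itself was lost without memory IL-7 array 1 or array 2 (adjusted p up to 0.0615) while medium replicate 2 was in the fit. Once medium replicate 2 was out of the fit, it had an adjusted p of 3.45e-08.

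In group means, the order of memory and naive cells in Rgs1 was not the same in every state. With all arrays in the fit, none of these 3 differences passed. The shift between ex vivo and IL-7 is the difference of -3.30 given above (limma, adjusted p = 0.165), not a separate result. Ex vivo, memory cells lay above naive cells by 1.83 (SE 0.55, adjusted p = 0.112), with none of the 7 genes called beside 1.93% of all genes. With IL-7 they lay below naive cells by a change of -1.46 (SE 0.63, adjusted p = 0.322). With medium replicate 2 left out, both passed. The ex vivo difference then had an adjusted p of 7.02e-05 beside 4.39% of all genes called, and the one with IL-7 0.00167 beside 4.8%. With IL-4 and IL-7 the difference was 0.79 (SE 0.63, adjusted p = 0.467; 0.0517 without medium replicate 2), and none of the 7 was called beside 3.81% of all genes. With naive IL-4 and IL-7 array 2 also left out, it passed (adjusted p = 0.0299). The array groups did not overlap in any of the 3 states. The share of all genes with such a gap was not counted, so nothing is read from it.

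Memory and naive arrays also differed in markers of other cells. In the B cell list 1 of 5 genes tested was called higher in memory cells ex vivo, and its summed linear signal was 222.6 to 237.8 in naive and 284.4 to 390.7 in memory cells. The red cell precursor list (Alas2 and Hba-a1) summed to 58.97 to 80.53 and 262.3 to 2897, with Hba-a1 under the filter value. The NK cell list (Ncr1, Klra8 and Eomes) summed to 73.59 to 87.29 and 102.9 to 237.3, and its member Eomes is also a T cell gene with higher means in groups given IL-4 (9.33 in memory cells with IL-4 against 6.99 with IL-7). The part of these cells in the Rgs1 differences was not tested.

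**Figure D2:**
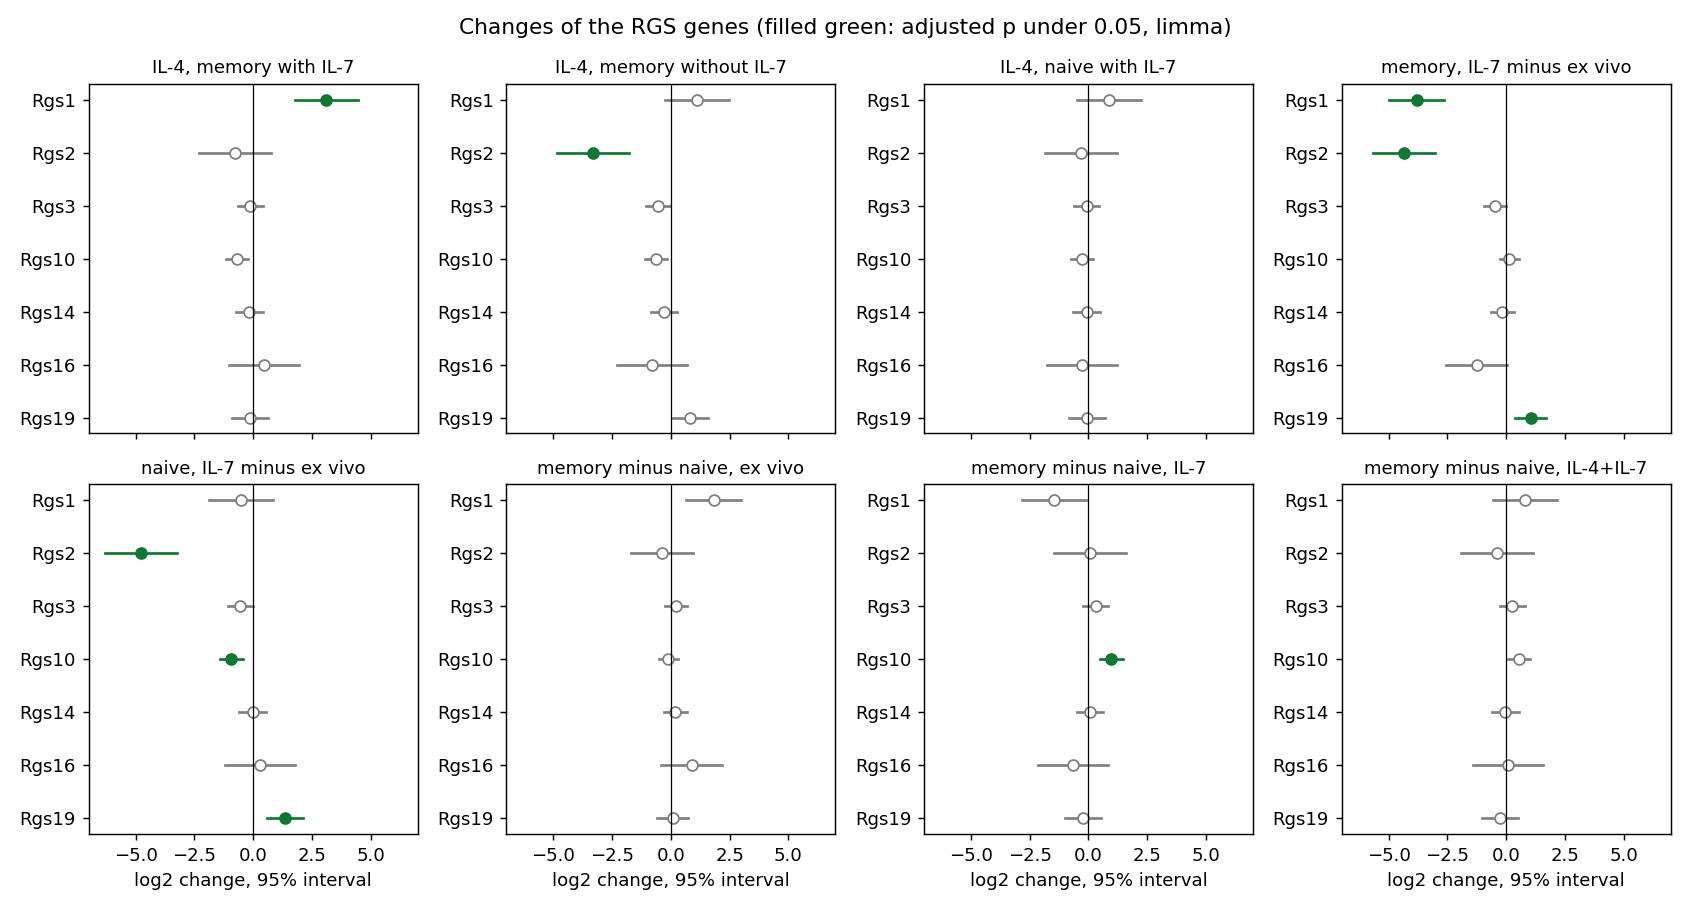
Log2 changes of the 7 RGS genes with 95% intervals in 8 comparisons from the limma model over 18 arrays, with filled green points for an adjusted p under 0.05. Rgs1 is filled for IL-4 added to IL-7 in memory cells (3.12) and for memory cells in IL-7 against ex vivo (-3.80), Rgs2 for both culture comparisons, and no gene is filled for IL-4 in naive cells.

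Rgs16, a close relative of Rgs1 that is induced by T cell activation, differed between partner arrays of the cultured naive groups. Naive cells read 5.46 and 7.06 with IL-7 and 4.72 and 7.24 with IL-4 and IL-7, with the high value in replicate 2 of each. Memory cells read 6.998, 7.18, 6.42 and 6.80 ex vivo and 5.49 and 7.41 in medium, the latter in replicate 2. All 6 memory arrays with a cytokine lay between 5.58 and 6.16. A second Rgs16 probe set, 1426037_a_at, was also high on those naive replicate 2 arrays, at 5.60 and 5.52 against 3.61 and 3.30 on their partners. The same naive arrays were the higher of their groups in the immediate early list (8.76 and 9.73 with IL-7, 8.38 and 9.79 with both cytokines), and its part in the Rgs16 values was not tested. Rgs16 passed in none of the 14 comparisons. Its largest change was -1.53 for the difference in culture response between memory and naive cells (SE 0.92, adjusted p = 0.571).

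Rgs3, made in several isoforms that differ before the shared RGS domain, varied little. Its main probe set read 8.26 and 7.97 in naive cells ex vivo and 8.70, 7.86, 8.39 and 8.43 in memory cells ex vivo. The 4 cultured naive arrays lay between 7.35 and 7.78. The memory arrays with IL-4, alone or with IL-7, lay between 7.40 and 7.78. It was called by the F test, yet in none of the 14 single comparisons: its changes against ex vivo were -0.46 in memory cells with IL-7 (SE 0.21, adjusted p = 0.14) and -0.55 in naive cells with IL-7 (SE 0.25, adjusted p = 0.165). With each probe set tested on its own, none of the 4 Rgs3 probe sets was called in any of the 14 comparisons.

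**Figure D3:**
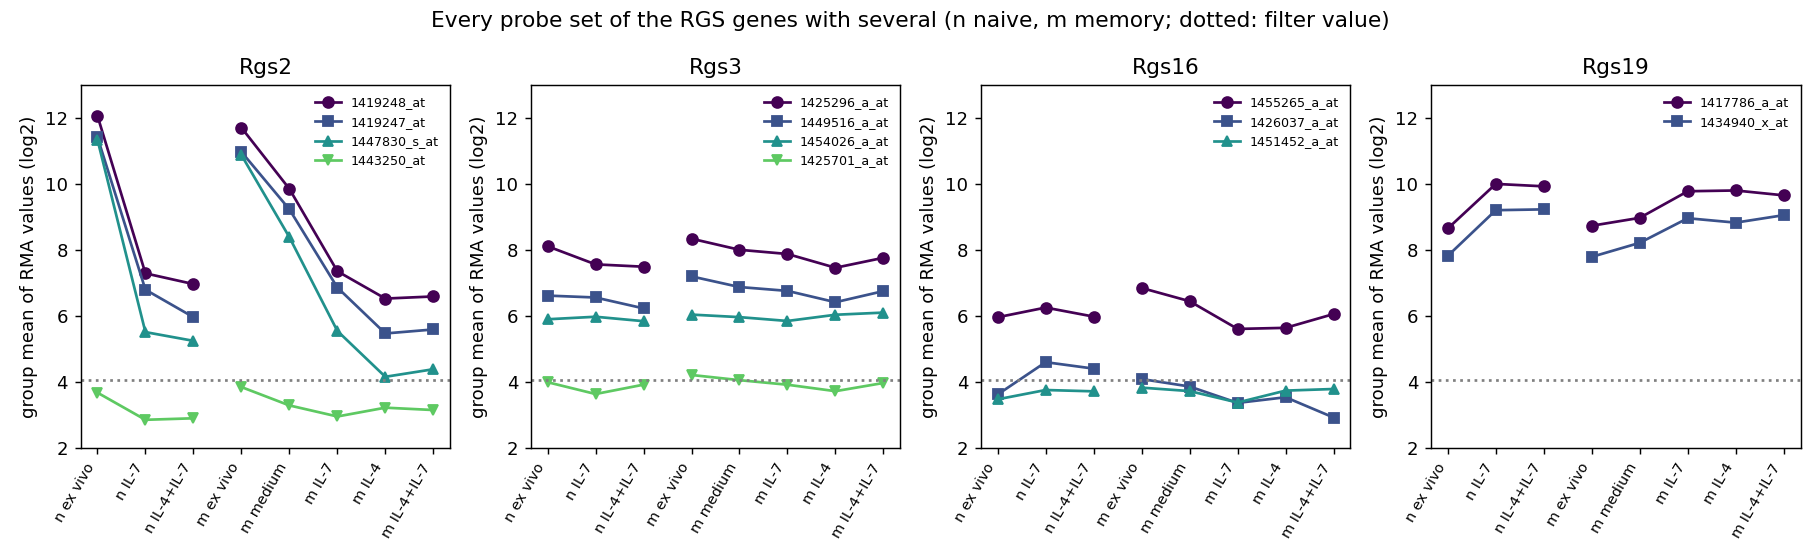
Group means of RMA values (log2) for every probe set of the 4 RGS genes that have several, with the filter value of 4.06 as a dotted line. The upper 3 Rgs2 probe sets run in parallel from the ex vivo groups to the cultured ones, as do both Rgs19 probe sets in the opposite direction, while 1443250_at (Rgs2) and 1451452_a_at (Rgs16) stay at or under the filter value.

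Rgs10, a small RGS protein abundant in leukocytes that acts on Gi-class subunits, differed between naive and memory cells cultured with IL-7. Over all cultured arrays but medium replicate 2, naive cells lay between 8.49 and 9.24 and memory cells between 9.12 and 10.11, which overlap. Ex vivo it read 10.05 and 10.06 in naive and 9.90, 10.19, 9.89 and 9.84 in memory cells. With IL-7 it read 9.19 and 9.06 in naive cells and 10.11 and 10.10 in memory cells. The IL-7 groups did not overlap, and the ex vivo groups did. Here too, the share of all genes with such a gap was not counted.

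With IL-7, Rgs10 was higher in memory than in naive cells by 0.98 (SE 0.22, adjusted p = 0.0303; 0.0224 without medium replicate 2), the 1 RGS gene of 7 called there, beside 2.7% of all genes. The call was lost without any 1 of the 4 arrays compared (adjusted p up to 0.243), with or without medium replicate 2, and with the replicate number as a block (0.0632). Ex vivo the difference was -0.10 (SE 0.19, adjusted p = 0.814), and with IL-4 and IL-7 it was 0.55 (SE 0.22, adjusted p = 0.164). Naive cells fell by 0.93 with IL-7 against ex vivo (SE 0.22, adjusted p = 0.0173; 0.00942 without medium replicate 2), while memory cells changed by 0.15 (SE 0.19, adjusted p = 0.626). The difference between those changes was 1.08 (SE 0.29, adjusted p = 0.20; 0.112 without medium replicate 2). The naive call was lost without any 1 of the 4 naive arrays (adjusted p up to 0.132), and with medium replicate 2 also out, without ex vivo array 2 (0.0544) or IL-7 array 2 (0.0748).

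With IL-4, Rgs10 values in memory cells were lower without passing the test. The arrays with IL-4 read 9.62 and 9.12, those with IL-4 and IL-7 9.46 and 9.37, and all 4 lay below the medium arrays (10.00 and 10.02) and the IL-7 arrays. The change was -0.69 with IL-7 (SE 0.22, adjusted p = 0.158; 0.121 without medium replicate 2) and -0.64 without (SE 0.22, adjusted p = 0.203). Here both medium arrays read alike, and the change without IL-7 was -0.65 without replicate 1 and -0.63 without replicate 2. Rgs14, a scaffold that joins RGS and Ras-binding domains, lay between 8.45 and 9.43 on all 18 arrays and was called in none of the 14 comparisons.

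Rgs19, first described as a protein that binds the alpha subunit Gi3, went up in culture where Rgs2 went down. Ex vivo arrays read 8.78 and 8.52 in naive cells and 9.03, 8.22, 8.95 and 8.75 in memory cells. With IL-7 they read 10.00 and 10.00 in naive cells and 9.74 and 9.82 in memory cells. All cultured arrays but medium replicate 2, at 8.29, lay above all ex vivo arrays.

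Rgs19 rose by 1.35 in naive cells with IL-7 (2.55-fold, SE 0.36, adjusted p = 0.0261) and by 1.04 in memory cells with IL-7 (2.06-fold, SE 0.31, adjusted p = 0.0297). The second Rgs19 probe set gave 1.38 and 1.17. The naive call was lost without any 1 of its 4 arrays (adjusted p up to 0.154), and the memory call without ex vivo array 2 or 4 or either IL-7 array (adjusted p up to 0.172). Without medium replicate 2 the adjusted p was 0.00159 in naive and 0.00223 in memory cells, and every further array could be left out (up to 0.0214 and 0.0334). IL-4 changed Rgs19 little where IL-7 was present, by -0.12 in memory and -0.07 in naive cells.

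RefSeq lists 3 start windows for Rgs19, 1 of which held the only motif match among the 8 windows of Rgs2, Rgs3, Rgs10, Rgs16 and Rgs19. It is shown for that match, in capitals, a STAT site with the longer spacer (GRCm38.p6, chr2:181691768-181692067, minus strand, starting at base 290 of the window).
Rgs19: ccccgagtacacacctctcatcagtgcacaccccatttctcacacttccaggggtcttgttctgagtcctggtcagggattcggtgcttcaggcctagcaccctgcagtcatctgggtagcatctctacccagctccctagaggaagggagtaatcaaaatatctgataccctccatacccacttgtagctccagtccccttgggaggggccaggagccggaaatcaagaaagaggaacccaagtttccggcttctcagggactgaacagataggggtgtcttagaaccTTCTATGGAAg
This is a description of letters. Of all windows, 6.95% hold such a match. Rgs1 and Rgs14 are not in the sequence table used here.

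Counted together, culture with IL-7 was the comparison with the most calls among the RGS genes. In memory cells 3 of 7 were called, Rgs19 up and Rgs1 and Rgs2 down, beside 19.9% of all genes. In naive cells 3 of 7 were called, Rgs19 up and Rgs2 and Rgs10 down, beside 12.8%. Fitted without medium replicate 2, the same genes were called, beside 26.9% and 20.1% of all genes. The median change of the 7 genes was -0.46 in memory and -0.51 in naive cells, beside medians of -0.05 and 0.07 over all genes. These comparisons share the model's spread but no arrays. With 7 genes, nothing is read from these counts against the shares of all genes.

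Of the immediate early list, 15 of 19 fell and 0 rose in memory cells with IL-7 against ex vivo, where 1219 of all 13769 genes fell. In naive cells 5 fell, 1 rose and the rest did not pass, where 798 of all genes fell. Fitted without the doubted medium array, 15 fell in memory cells, and 8 fell and 1 rose in naive cells. Rgs2 and Rgs1 are themselves induced by stimulation of lymphocytes, which is background, and the part of whatever moves this list in their ex vivo levels was not tested. The list was among those chosen with earlier results known.

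The comparisons of this paragraph used the medium arrays without IL-4 and gave no RGS calls, and each depended on which medium array was in. IL-7 against medium changed Rgs1 by -1.77 and Rgs2 by -2.49 (both adjusted p = 0.723), and 0 genes of all tested passed limma's threshold (0%), with 804 at an unadjusted p under 0.05. Once medium replicate 2 was out of the fit, these changes were -0.20 and -0.69 (adjusted p = 1 for both). Without medium replicate 1, Rgs1, Rgs2 and Rgs19 were called at -3.34, -4.30 and 1.49, beside 16.3% of all genes. In the interaction between the cytokines, 0 genes passed (0%; 650 at an unadjusted p under 0.05), and Rgs1 and Rgs2 had values of 2.02 and 2.56. Without medium replicate 2 these were 0.44 and 0.76, and without medium replicate 1 they were 3.59 and 4.36, with both and Rgs19 called beside 9.43% of all genes.

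Medium against ex vivo gave changes of -2.03 for Rgs1 and -1.85 for Rgs2 (both adjusted p = 0.475), with 0 genes of all tested called (0%; 1364 at an unadjusted p under 0.05). When medium replicate 2 was left out, Rgs1 fell by 3.60 and Rgs2 by 3.66 (adjusted p = 2.2e-06 and 2e-06), and Rgs19 rose by 0.93 (adjusted p = 0.0336), 3 of 7 beside 16.4% of all genes. The Rgs19 call then missed when ex vivo array 4 was also left out (adjusted p = 0.0523). That comparison rests on 1 medium array, assumed to vary like the other groups. IL-7 added to IL-4 changed none of the 7 (largest change 0.42, Rgs16), and 0 genes of all were called (0%; 286 at an unadjusted p under 0.05).

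**Figure D4:**
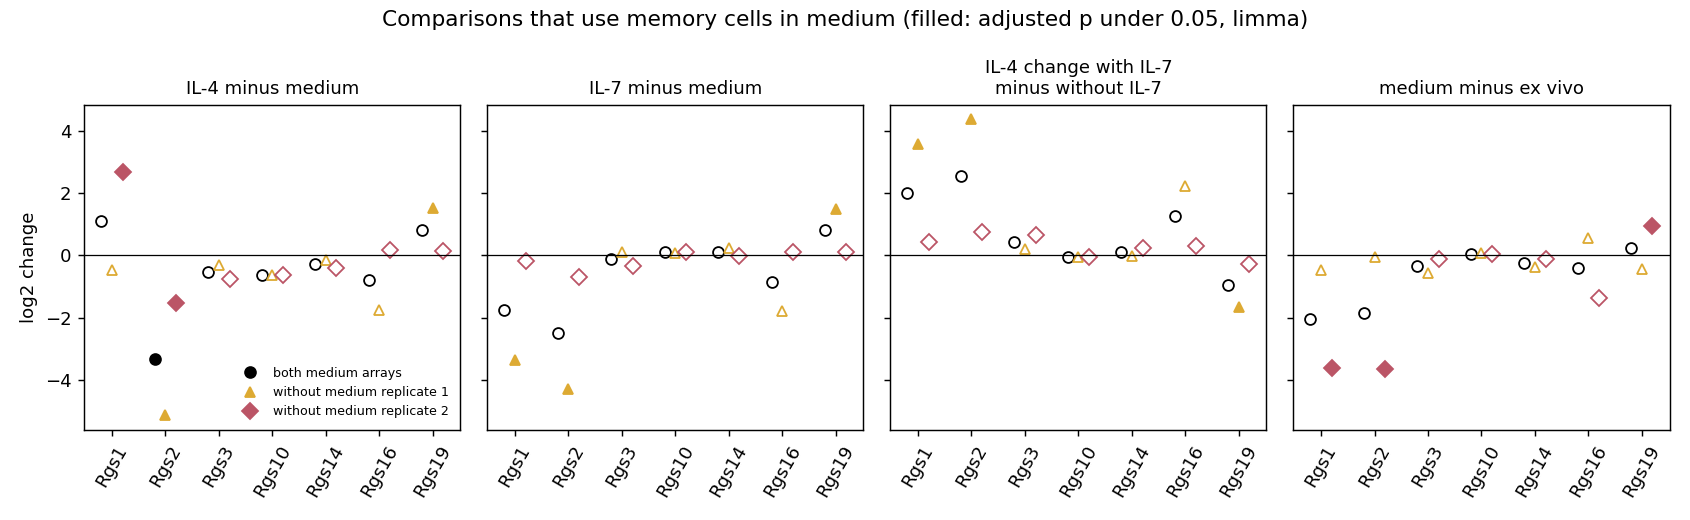
Log2 changes of the 7 RGS genes in the 4 comparisons that use memory cells in medium, with both medium arrays (black), without replicate 1 (yellow) and without replicate 2 (red), filled where the adjusted p is under 0.05. The changes of Rgs1 and Rgs2 move apart with the choice of array, for example -0.47 and 2.68 for Rgs1 with IL-4, while those of Rgs10 stay together.

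Other genes of G protein signalling were read from a list of 101 genes, of which 81 were tested. The list holds G protein subunits, receptors, receptor kinases and arrestins, effectors, and other RGS genes and regulators. They are called partners for short, whether or not they bind an RGS protein. In culture with IL-7, 9 of 81 were called higher and 17 lower in memory cells, and 4 higher and 16 lower in naive cells, beside 19.9% and 12.8% of all genes in either direction. Over all genes, 1526 rose and 1219 fell in memory cells, and 965 rose and 798 fell in naive cells. The partners' medians were -0.03 and -0.08. Among receptors, 3 rose and 9 fell of 21 in memory cells. Cxcr4, the receptor for the homing chemokine Cxcl12, fell by 3.19 (adjusted p = 0.00451) and 2.55 in naive cells (adjusted p = 0.0189). Crem, a cAMP-responsive transcription factor, fell by 4.51 (adjusted p = 0.00479) and 3.45 (adjusted p = 0.0254). Gpr34, a lysophospholipid receptor, rose by 2.27 (adjusted p = 0.00392) and 3.45 (adjusted p = 0.000129). The Cxcr4 and Crem calls were lost without either IL-7 array, and in naive cells also without either ex vivo array. Fitted without medium replicate 2, the adjusted p was 1.22e-05 and 0.000442 for Cxcr4 and 4.17e-07 and 3.32e-05 for Crem in memory and naive cells, and the partner counts were 12 and 18 in memory cells and 7 and 16 in naive cells, beside 26.9% and 20.1% of all genes.

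With IL-4 in memory cells given IL-7, 1 of 81 partners fell and 0 rose, beside 1.81% of all genes called: Pde7a, a cAMP phosphodiesterase, by 1.49 (adjusted p = 0.00274). Without IL-7, 1 of 81 rose and 2 fell, beside 1.94% of all genes. Pde7a fell by 1.36 (adjusted p = 0.0045), Cxcr5, a follicle-homing receptor, fell by 1.56 (adjusted p = 0.0118) and Cxcr6 rose by 3.42 (adjusted p = 0.0287). Without medium replicate 2, Cxcr5 (0.0656) and Cxcr6 (0.192) missed the threshold. Without IL-4 array 1 all of these latter 3 missed, and without IL-4 array 2 Pde7a and Cxcr6 did. In naive cells 1 of 81 was called, beside 1.26% of all genes: Gpr34 fell by 1.92 (adjusted p = 0.0113), lost without either IL-7 array or without IL-4 and IL-7 array 1. With the doubted medium array out, these 3 comparisons had 1 partner higher and 3 lower, 0 and 1, and 2 and 2, beside 3.91%, 1.54% and 2.11% of all genes.

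Between memory and naive cells ex vivo, 3 of 81 partners were higher and 4 lower in memory cells, beside 141 higher and 125 lower of all 13769 genes (1.93%). Without the doubted medium array, 3 were higher and 6 lower. Cxcr3, an inflammatory chemokine receptor, differed by 5.44 (adjusted p = 1.35e-07), Cxcr5 by 3.005 (adjusted p = 9.07e-06), the gut-homing receptor Ccr9 by -2.97 (adjusted p = 8.58e-05) and the oxysterol receptor Gpr183 by 2.01 (adjusted p = 0.00905, lost without either naive array). Cxcr3 and Cxcr5 also differed with IL-7 (5.76 and 4.10) and with both cytokines (6.05 and 3.21). Each of these 6 calls of Cxcr3 and Cxcr5 held with any 1 array left out.

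Among the other RGS genes and regulators, 20 of 22 listed were on the array and 13 were tested. Rgs13, which lies between Rgs2 and Rgs1 in RefSeq gene order on chromosome 1, reached at most 2.72 on any array, under the filter value, as did Rgs18 at 3.28. In memory cells with IL-7 against ex vivo, Ric8a, a chaperone of alpha subunits, rose by 0.95, and Axin2 and Rgs11 fell by 1.02 and 0.62. In naive cells Ric8a rose by 0.67 and Axin2 fell by 1.25. None of the 13 was called in the IL-4 comparisons.

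The genes whose 8 group means ran most like each RGS gene were taken by Pearson correlation over 4389 genes whose group means span at least 1 log2 unit. For Rgs2 they were Dnajb9 (r 0.998), Atg101 (0.997) and Irs2 (0.997). For Rgs1 they were the interferon regulatory factor Irf1 (0.946), Ddit3 (0.939) and B430306N03Rik (0.939). Irf1 group means were 11.91 in memory cells with IL-7, 13.02 with both cytokines and 13.17 ex vivo, the order that Rgs1 has in these groups. Irf1 was picked for its likeness to Rgs1, so this shared order adds nothing to the correlation. For Rgs10 they were Hs3st3b1 (0.973), St3gal6 (0.966) and Ttc28 (0.966), for Rgs19 Rad50 (0.992), Hspb6 (0.991) and Nup37 (0.987), and for Rgs16 Pvt1 (0.950), Cd74 (0.943) and Adm (0.928). Among the RGS genes themselves, Rgs2 and Rgs19 ran opposite (r -0.956) and Rgs2 and Rgs3 together (0.884), while Rgs1 and Rgs2 did so weakly (0.205). These values describe 8 group means that share the same arrays, and medium replicate 2 enters 1 of them. Rgs16 did not pass limma's F test (adjusted p = 0.567). Its group means span 1.24, beside SDs of 1.13 and 1.78 in the cultured naive groups, so its matches rest on uncertain means.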

How the data were processed

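The 7 genes and the gene lists were chosen with earlier results of these data known. Per the submitters' processing notes, the authors used RMA and limma, with no version given; the deposited values are log2 RMA values, 1 per probe set and array. Per the labels' protocols, RNA was amplified, and biotin was added during in vitro transcription. A genome build is not given in the sources used here. Of 45101 probe sets, 34945 had 1 gene symbol in the array's annotation, 932 several and 9224 none or a control; only the first were tested. The brightest probe set stood for a gene, and a gene was kept if it exceeded the 40th percentile of all values (4.06) on at least 2 arrays. The filter value is a percentile, not a measured background, and the number of arrays limits the precision. limma 3.58.1 in R 4.3.3 fitted 1 mean per group (10 residual degrees of freedom), was tested on simulated data, and its p-values were adjusted by Benjamini-Hochberg. No label ties a replicate number to a population, so arrays were not paired; a fit with the number as a block is an alternative. At most 34 values were identical in any pair of arrays. Genes were named by a rule: all 7 RGS genes, up to 4 called partners per comparison with the largest changes, and the 3 genes most alike. Alternatives were a block for replicate number, array weights, only the groups compared, no filter, centring on the median, the mean of a gene's probe sets, each probe set as a unit, a trended robust prior, and each array left out. Leaving out medium replicate 2 with a further array was chosen after seeing the data. Medium replicate 2 was also the only array left out of comparisons that do not use it. No label marks it as doubtful, and it was singled out from these same values. RefSeq tables of GRCm38.p6 gave the promoter sequences and gene order.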

Additional observations from a re-analysis of the deposited data

Results flagged for a closer look

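Among the 4 ex vivo memory arrays, the gap between the lowest array and the next was large relative to the range for a pair of Rgs2 probe sets. For 1419247_at it was 0.888 of the range: replicate 2 read 10.70 and the others 11.05 to 11.09. For 1447830_s_at it was 0.885, and here replicate 1 was low, at 10.65 against 10.93 to 10.97. Both exceed Dixon's limit for 4 samples, and 14 probe sets were examined. Chance exceeds that limit in about 5% of groups. The low array was not the same for both, and the main Rgs2 probe set had a ratio of 0.245.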

How the results depend on the processing

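Over 1386 values of the 7 genes under these alternatives, 1328 kept their side of the threshold, 28 lost a call and 30 gained one. A further count shows 66 values with the other sign, none of them past the threshold in either fit. The number of RGS genes called moved as follows. The share of all genes called also moved between these fits and is not given for each of them. Nothing is therefore read from these counts about the RGS genes. With array weights it was 2 for IL-4 added to IL-7 in memory cells, 1 for memory against naive cells ex vivo, 2 with IL-7, 5 for memory cells with IL-7 against ex vivo, and 2 for the difference in culture response. With only the groups compared in the fit it was 2, 1, 2 and 2 for these in turn, leaving out the culture of memory cells, and 0 for IL-4 without IL-7. With each array left out in turn it ran from 0 to 1 for IL-4 with IL-7, the IL-4 response of memory against naive cells, memory against naive cells ex vivo and with both cytokines, and the difference in culture response. It ran from 0 to 2 for IL-4 without IL-7 and for memory against naive cells with IL-7, and from 0 to 3 for IL-7 without IL-4, the interaction, medium against ex vivo and memory culture. It ran from 1 to 3 for naive culture and from 4 to 5 for the F test. With both cytokines the gain was Rgs10, without naive IL-4 and IL-7 array 2.

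With the replicate number as a block it was 0 for IL-4 with IL-7 (Rgs1, adjusted p = 0.0501) and 0 for memory against naive cells with IL-7 (Rgs10, adjusted p = 0.0632) and 4 for the F test; no other RGS call changed. No label says that a number marks a shared population. The block gives all arrays of a number 1 shared offset, across naive and memory cells. It therefore cannot test a pairing that lies within naive or within memory cells alone. Deviations of same-numbered arrays from their group means correlated from -0.175 to 0.511, above 0.1 in 31 of 56 values, of which groups of 2 give the same value for both numbers. The data give a hint of pairing among the cultured memory arrays with cytokine (0.251 to 0.447) and the cultured naive arrays (0.511). In the former, the red cell precursor list summed to 1100, 957.2 and 1055 in replicate 1 with IL-7, IL-4 and both, and to 143.1, 126.3 and 155.4 in replicate 2. Memory arrays with IL-4 and with both cytokines correlated best with the same-numbered array of the other group (Pearson r 0.9939 and 0.9933). Their own groups gave 0.9924 and 0.99. Naive arrays with both cytokines correlated best with the same-numbered naive IL-7 array (0.9776 and 0.989). The naive IL-7 arrays correlated best with each other (0.9894), and both memory IL-7 arrays with medium array 1. All comparisons were tested unpaired.

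With 2 arrays in most groups, 1 array can end a call, and medium replicate 2 was part of the shared spread in every comparison. The causes of these shifts were not tested.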
